A study of Mus musculus with 9 samples.

Results

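The fibrillar collagens are the extracellular matrix proteins that assemble into the load-bearing fibers of connective tissue. Their genes were followed here in lung fibroblasts of aged mice with and without bleomycin injury. The members are the rows of the deposited gene table whose symbol is that of a fibrillar collagen chain, which gave 10 of 43346 genes: Col1a1, Col1a2, Col3a1, Col5a1, Col5a2, Col5a3, Col11a1, Col11a2, Col24a1, and Col27a1. Col2a1, the chain of cartilage type II collagen, belongs to the same family and is described beside them.

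Bulk RNA-Seq had been carried out on lung fibroblasts sorted as GFP+, CD45-, CD31-, and EpCAM- cells, with 1 library per mouse. All mice were of the Col1a1-GFP strain, in which a Col1a1 promoter fragment drives a fluorescent reporter, and the sample labels give an age of 72 weeks whereas the treatment text gives 18 months. The aged sham group (n = 4) had received saline and the aged bleo group (n = 5) bleomycin, each as 1 intratracheal dose, and lungs were taken 30 days later. The gate selects cells by this reporter, so cells without reporter signal were meant to be left out of both groups. The level of Col1a1 is therefore that of cells chosen through a fragment of its own promoter.

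Collagen chains wind around each other in triple helices, which requires a glycine at every repeat of the Gly-X-Y triplet. Type I collagen combines α1 and α2 chains, type III is made of Col1a1's relative Col3a1 alone, and types V and XI are minor chains that start fibrils and limit their width. Procollagen is hydroxylated and folded in the endoplasmic reticulum, trimmed outside the cell, aligned into fibrils, and crosslinked by lysyl oxidases. In the lung, fibroblasts are the main source of these proteins, and their accumulation is the hallmark of fibrosis. The family is divided by sequence into clade A (Col1a1, Col1a2, Col3a1, Col5a2), clade B (Col5a1, Col5a3, Col11a1, Col11a2), and clade C (Col24a1, Col27a1).

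The members share a gene structure that is visible in the sequence. Below is, for 5 members, the last coding exon of 54 bases in the longest run of Gly-X-Y triplets, shown to let the repeat be read directly, in the GRCm38 build and 5′ to 3′ along the coding strand. Capitals mark the codons that start with GG, which encode glycine, and each of these exons holds 6 of them, 1 in every 9 bases.
Col1a1 (chr11:94949720-94949773, plus strand): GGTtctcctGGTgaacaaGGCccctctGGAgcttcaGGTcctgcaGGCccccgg
Col3a1 (chr1:45344797-45344850, plus strand): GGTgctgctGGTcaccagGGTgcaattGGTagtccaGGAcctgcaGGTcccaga
Col5a1 (chr2:28022281-28022334, plus strand): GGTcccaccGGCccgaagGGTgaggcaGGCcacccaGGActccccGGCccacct
Col11a1 (chr3:114206654-114206707, plus strand): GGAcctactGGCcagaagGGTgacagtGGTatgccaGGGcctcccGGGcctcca
Col24a1 (chr3:145480350-145480403, plus strand): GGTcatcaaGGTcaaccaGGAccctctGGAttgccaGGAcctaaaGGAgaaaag

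In each gene, codons of this kind opened an unbroken run of triplets, which spanned 337 to 344 triplets in the 8 genes of clades A and B. In Col24a1 and Col27a1 the longest runs were 216 and 217 triplets, each accompanied by another run of 93. All 428 coding exons lying wholly in the longest runs had a length divisible by 9 and started on a glycine codon. Of these exons, 261 (61.0%) were exactly 54 bases long, against 791 of 151382 internal coding exons (0.523%) of the 20328 other genes with an annotated coding sequence. Exons of 99 bases occurred 5 times in each clade A gene and in no gene of clades B or C. Between clades, the exons also differed in number, with 41 or 42 in the runs of clade A, 47 or 48 in clade B, and 35 in clade C.

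**Figure D1:**
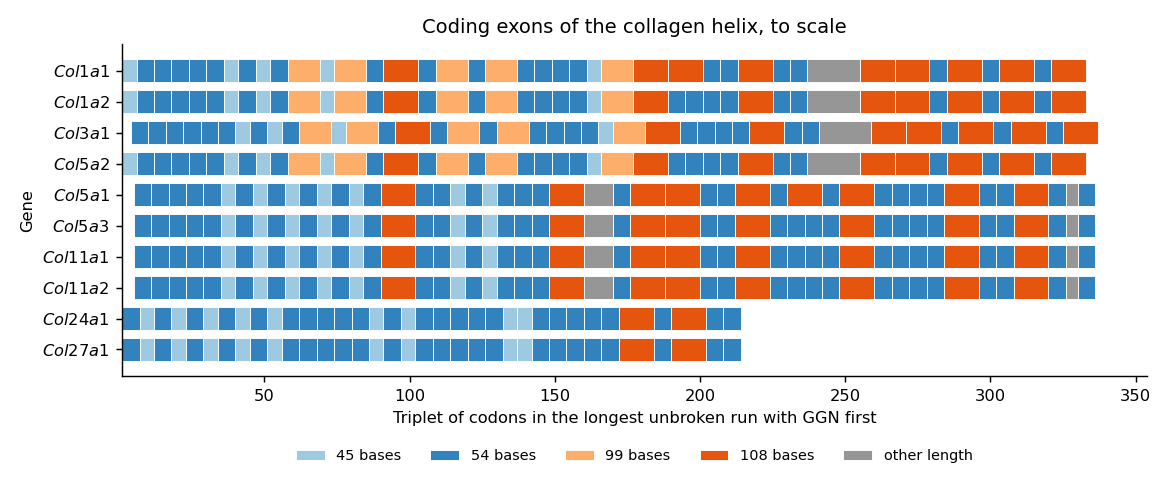
Coding exons in the longest glycine run of each of the 10 genes, drawn to scale along the count of Gly-X-Y triplets (x axis) and coloured by exon length in bases. Exons of 54 bases are the most frequent length in every gene, and exons of 99 bases appear in the 4 clade A genes. The runs of Col24a1 and Col27a1 hold 216 and 217 triplets, and only exons lying wholly in a run are drawn.

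The libraries held 49921946 to 62370512 counts in aged sham and 53833507 to 68260600 counts in aged bleo. A gene without any count could still have up to 3, which is 0.0409 to 0.0605 CPM (counts scaled to library size) and covers counting error only. The surface proteins used to remove other cells had few transcripts, with at most 1.20 CPM of Epcam and 6.70 CPM of Pecam1 in any library, whereas Ptprc, which encodes CD45, lay between 42.3 and 169 CPM before injury and between 30.6 and 183 CPM after it. The summed level of 9 macrophage markers was 142 to 265 CPM in aged sham and 446 to 1509 CPM in aged bleo, with 5 of the 9 called higher. That of 7 cell cycle genes was 12.2 to 59.8 CPM and 40.7 to 289.8 CPM, with all 7 called higher. The 8 fibroblast markers summed to 12609 to 14007 CPM in aged sham and to 3941 to 9518 CPM in aged bleo, 3 of them being higher and 3 lower. The 6 endothelial markers also separated the groups, with sums of 159 to 193 CPM in aged sham and 22.8 to 66.0 CPM in aged bleo (1 called higher and 1 lower of 5 tested). The sums of 7 smooth muscle and pericyte markers overlapped, at 1424 to 2865 CPM and 891 to 1852 CPM (1 called higher and 2 lower). Of all genes tested, 12.3% were called higher and 11.5% lower. The endothelial and smooth muscle counts of 1 or 2 genes per direction are too small to be set against these shares. No marker gene was at 0 in every library, and the part of these shifts in the collagen results was not tested. Each library name in the table carries a final number, which is 4 in aged sham and in aged bleo 4 and is 5 or 6 in the rest, and its meaning is not given in the sources used here.

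All 10 members passed the filter of an average count of at least 25, and 9 were called higher in aged bleo by edgeR (FDR below 0.10, more than 1.5-fold), against 12.3% of the 16877 genes tested that were called higher. None was called lower (11.5% of all genes), and Col11a2 was not called. In either direction, 23.8% of the genes were called. For the same 9 members the libraries of the groups did not overlap, each aged bleo value exceeding all 4 aged sham values, which held for 16.1% of the tested genes. The median log2 fold change of the members was 1.92, beside 0.01 for all genes tested. Together they took up 1.68% to 2.13% of all counts in aged sham and 5.20% to 7.75% in aged bleo. In bulk libraries, a smaller number of expressing cells and less RNA per cell cannot be told apart, so these values do not say how many cells made the transcripts.

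**Figure D2:**
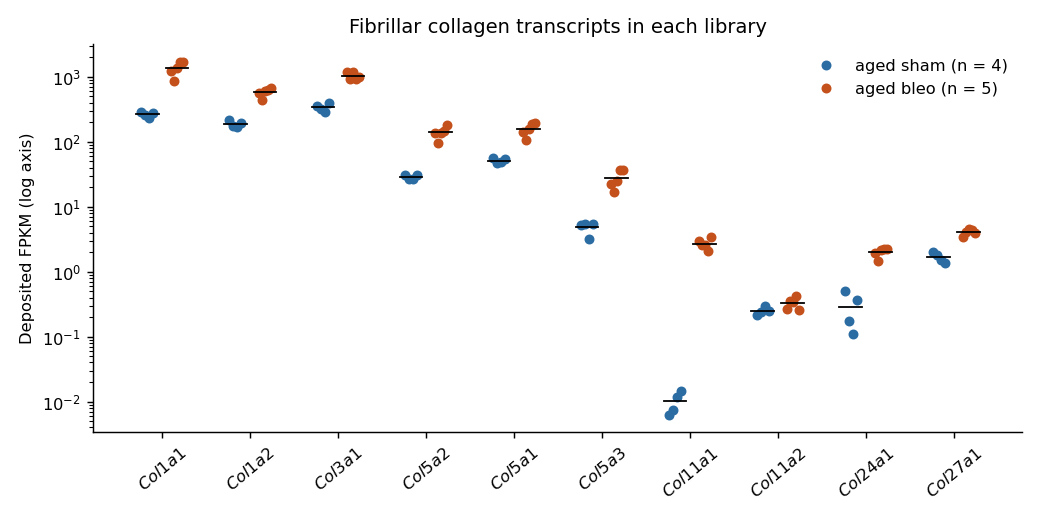
Deposited FPKM (log axis) of the 10 fibrillar collagen genes in each library, with aged sham (n = 4) in blue, aged bleo (n = 5) in orange, and the group mean as a line. The groups are separate for every gene except Col11a2, and Col11a1 moves from about 0.0101 to 2.71 FPKM.

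On the deposited FPKM scale, which corrects for length, the aged sham libraries all had the order Col3a1, Col1a1, Col1a2, Col5a1, Col5a2, Col5a3, and Col27a1, followed by Col24a1 and Col11a2 in varying order and Col11a1 at the bottom. Mean levels in aged sham ran from 337 ± 46.2 FPKM (SD, n = 4) for Col3a1 and 265 ± 23.4 FPKM for Col1a1 down to 0.0101 ± 0.00384 FPKM for Col11a1. The ranges of Col24a1 (0.288 ± 0.178 FPKM) and Col11a2 (0.250 ± 0.0349 FPKM) overlapped. In aged bleo, Col1a1 (1371 ± 349 FPKM, SD, n = 5) and Col3a1 (1046 ± 131 FPKM) exchanged places between libraries, and Col11a1 (2.71 ± 0.499 FPKM) and Col24a1 (2.01 ± 0.331 FPKM) also overlapped. Col11a2 (0.329 ± 0.0679 FPKM) was the lowest in each aged bleo library. When counts were divided by the length of the principal mRNA instead, Col1a2 ranked above Col1a1 in all aged sham libraries, since the table's exon length is 12136 bases for Col1a2 against an mRNA of 5348 bases.

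Among the chains of types I and III, which form the bulk of lung collagen, Col1a1 (ENSMUSG00000001506, chromosome 11, 94936224 to 94953042, GRCm38) was at 4559, 4013, 3649, and 4397 CPM in aged sham 1 to 4. In aged bleo 1 to 5 it was at 18553, 13560.2, 21645, 24553, and 25954 CPM. The lowest aged bleo library thus lay 2.97-fold above the highest aged sham library (log2 fold change 2.33, SE 0.23, FDR 1.76e-04). Col1a2 (ENSMUSG00000029661, chromosome 6, 4504814 to 4541543), the partner chain of type I collagen, was at 6202, 4981, 4884, and 5786 CPM in aged sham and at 15630.5, 12764, 17698, 17149.6, and 19117 CPM in aged bleo. Its rise was smaller (log2 fold change 1.59, SE 0.18, FDR 3.27e-04), and the groups were again apart. Col3a1 (ENSMUSG00000026043, chromosome 1, 45311538 to 45349706), the single chain of type III collagen, was at 8370.3, 7351, 6577, and 9342 CPM in aged sham and at 26852, 21892, 27943, 20064, and 22758 CPM in aged bleo (log2 fold change 1.60, SE 0.19, FDR 4.82e-04). The aged bleo libraries with the most Col1a1, aged bleo 4 and 5, were not those with the most Col3a1, which were aged bleo 1 and 3.

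The type V chains co-assemble with type I collagen and start its fibrils. Col5a1 (ENSMUSG00000026837, chromosome 2, 27886425 to 28039514), the chain present in most type V trimers, was at 1149.8, 928, 978, and 1104 CPM in aged sham. It was at 2749, 2117, 3199, 3548, and 3756 CPM in aged bleo, a log2 fold change of 1.56 (SE 0.18, FDR 4.17e-04) with no overlap. Genes on the opposite strand overlap it and were counted at no more than 2.40% of its counts. Col5a2 (ENSMUSG00000026042, chromosome 1, 45374321 to 45503282, minus strand), its usual partner, was at 709, 595, 608, and 709 CPM in aged sham and 3054, 2209, 3140.2, 3142, and 3954 CPM in aged bleo. Every aged bleo value was at least 3.11 times the highest aged sham value (log2 fold change 2.24, SE 0.18, FDR 5.36e-05). Col5a2 lies 24614 bases from Col3a1 on the opposite strand, and the rise of Col3a1 was the smaller of this neighboring pair. Col5a3 (ENSMUSG00000004098, chromosome 9, 20770050 to 20815067, minus strand), a less common type V chain, was at 85.1, 87.2, 51.6, and 88.8 CPM in aged sham and at 357, 276, 411, 555, and 576 CPM in aged bleo. It had the largest rise of the type V chains (log2 fold change 2.48, SE 0.26, FDR 2.40e-04), and aged sham 3 stood below the other aged sham libraries.

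The type XI chains are known above all from cartilage, where they start the fibrils of type II collagen. Col11a1 (ENSMUSG00000027966, chromosome 3, 114030540 to 114220718) was barely detected in aged sham, with 9, 10, 14, and 17 counts or 0.145, 0.171, 0.273, and 0.343 CPM. In aged bleo it had 3507, 3335, 3200, 3239, and 4154 counts, or 65.2, 59.3, 59.8, 44.2, and 76.1 CPM, so that the lowest aged bleo library was 129-fold above the highest aged sham library. The log2 fold change of 8.05 (SE 0.27, FDR 1.65e-06) was the 4th largest rise among the 16877 genes. It passed the filter through its aged bleo counts alone, and with log2(FPKM + 1) values, which compress low levels, the log2 fold change was 1.87. Col11a2 (ENSMUSG00000024330, chromosome 17, 34039437 to 34066685), the other type XI chain, behaved otherwise. It was at 3.52, 3.83, 4.81, and 4.09 CPM in aged sham and at 4.20, 5.70, 5.58, 6.47, and 4.12 CPM in aged bleo, with overlapping groups (log2 fold change 0.36, SE 0.17, FDR 0.130). Col2a1, the cartilage chain that type XI chains accompany, had 7 to 31 counts in any library and was too low to be tested, at 0.370 to 0.513 CPM in aged sham and 0.130 to 0.423 CPM in aged bleo. Of the 6 cartilage markers 3 could be tested, and 2 were called higher and 1 lower, beside 12.3% and 11.5% of all genes. Acan, encoding aggrecan, was at 0.103 to 0.303 CPM in aged sham and 1.58 to 4.64 CPM in aged bleo. With 6 to 15 counts in the aged sham libraries, it passed the filter through its aged bleo counts alone. Sox9, a chondrocyte transcription factor, was at 27.5 to 43.7 CPM in aged sham and 10.0 to 22.4 CPM in aged bleo. The part of cells of that kind in the Col11a1 result was not tested.

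Col24a1 and Col27a1, the clade C chains, were described first in developing bone and cartilage. Col24a1 (ENSMUSG00000028197, chromosome 3, 145292472 to 145552011) was the most variable member among uninjured mice, with 9.11, 3.15, 1.99, and 6.80 CPM in aged sham (coefficient of variation 62.4%). After bleomycin it was at 34.4, 26.4, 39.3, 38.1, and 39.2 CPM (coefficient of variation 15.4%). The groups did not overlap (log2 fold change 2.75, SE 0.41, FDR 1.48e-03), and its log2 fold change was 1.23 with log2(FPKM + 1) values. Col27a1 (ENSMUSG00000045672, chromosome 4, 63214004 to 63334991) was at 62.0, 55.0, 46.8, and 43.9 CPM in aged sham and at 105, 126, 141, 125, and 119 CPM in aged bleo. It had the smallest rise among the called members (log2 fold change 1.25, SE 0.12, FDR 1.68e-04) together with the smallest standard error.

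**Figure D3:**
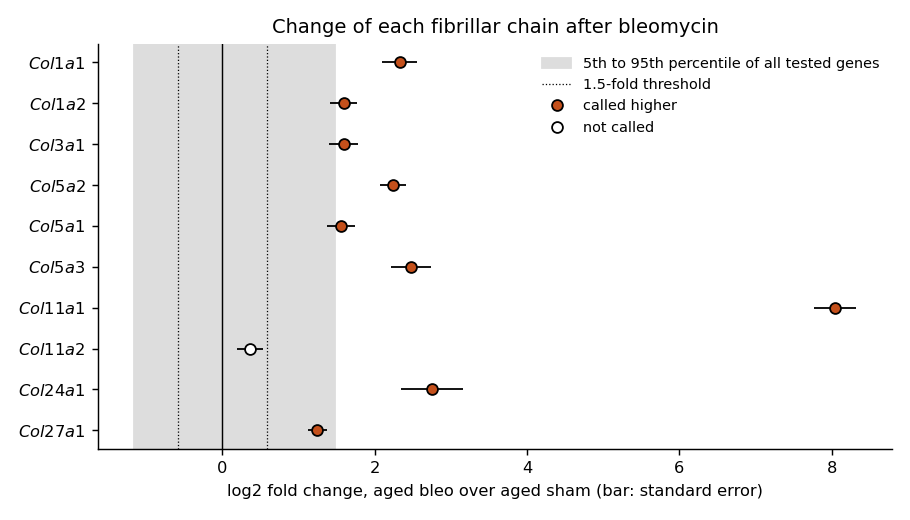
Fitted log2 fold change of each member, aged bleo over aged sham (x axis), with the standard error as a bar, filled points for called genes, and a grey band from the 5th to the 95th percentile of all genes tested. Col11a1 stands at 8.05, the other called members lie between 1.25 and 2.75, and the open point of Col11a2 is at 0.36.

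Aged bleo 4 is the single aged bleo library whose name ends in the same number as the aged sham libraries. In that library alone the 9 called members were between 2.41-fold (Col27a1) and 189.7-fold (Col11a1) above their aged sham means, with Col1a1 at 5.91-fold and Col3a1 at 2.54-fold. Col11a2, not called, was at 1.59-fold. The final number nearly coincides with the treatment, and 1 library cannot tell them apart.

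Since the chains rose by different amounts, the composition of the collagen transcripts changed. Ratios between 2 chains within a library do not depend on the scaling of libraries, and 6 such ratios were compared. In all 6, the libraries of the groups did not overlap, and the two-sided exact permutation test gave p = 0.0159, the smallest that 4 against 5 libraries allow. With every p at this floor, adjustment over the 6 ratios could not change it. The ratios share Col1a1 or Col5a1, so they are not 6 separate results. The ratio of Col11a1 rests on 9 to 17 counts in aged sham, and Col11a1 passed the filter through its aged bleo counts alone. How often ratios of other genes separate the groups was not examined.

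Of the partner chains of type I collagen, Col1a1 gained on Col1a2. Per base of mRNA, there were 0.663, 0.727, 0.674, and 0.685 Col1a1 transcripts for each Col1a2 transcript in aged sham 1 to 4, and 1.07, 0.958, 1.10, 1.29, and 1.22 in aged bleo 1 to 5. The mean log2 ratio rose by 0.71 (SE 0.08). The absolute level of this ratio depends on the lengths used, and the FPKM values gave 1.36 to 1.49 in aged sham and 1.96 to 2.65 in aged bleo, with the same difference between groups. The ratio of Col3a1 to Col1a1, which sets type III against type I, was 1.92 to 2.26 per mRNA length in aged sham. In aged bleo it was 1.54, 1.72, 1.38, 0.871, and 0.935, so that Col3a1 outnumbered Col1a1 in 3 of the 5 libraries, although on the FPKM scale it did so in aged bleo 2 alone (1.08). Its mean log2 ratio fell by 0.70 (SE 0.20), with a wide spread in aged bleo.

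Of the fibril-starting chains, Col5a1 fell relative to Col1a1. It stood at 0.163 to 0.189 transcripts per Col1a1 transcript in aged sham and at 0.102 to 0.110 in aged bleo, the narrowest range of the 6 ratios in aged bleo relative to its level, with a mean log2 ratio that fell by 0.76 (SE 0.05). Within type V, the ratio of Col5a2 to Col5a1 lay between 0.783 and 0.815 in aged sham and between 1.12 and 1.41 in aged bleo (log2 difference 0.68, SE 0.06). Per mRNA length, Col5a2 was therefore below Col5a1 in each aged sham library and above it in each aged bleo library, whereas on the FPKM scale it stayed below. The ratio of Col5a3 to Col5a1 was 0.0724 to 0.129 in aged sham and 0.177 to 0.215 in aged bleo (log2 difference 0.92, SE 0.19). Col11a1, which can take the place of a type V chain in mixed trimers, had between 0.000139 and 0.000340 transcripts per Col5a1 transcript in aged sham and between 0.0137 and 0.0307 in aged bleo (log2 difference 6.55, SE 0.36).

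**Figure D4:**
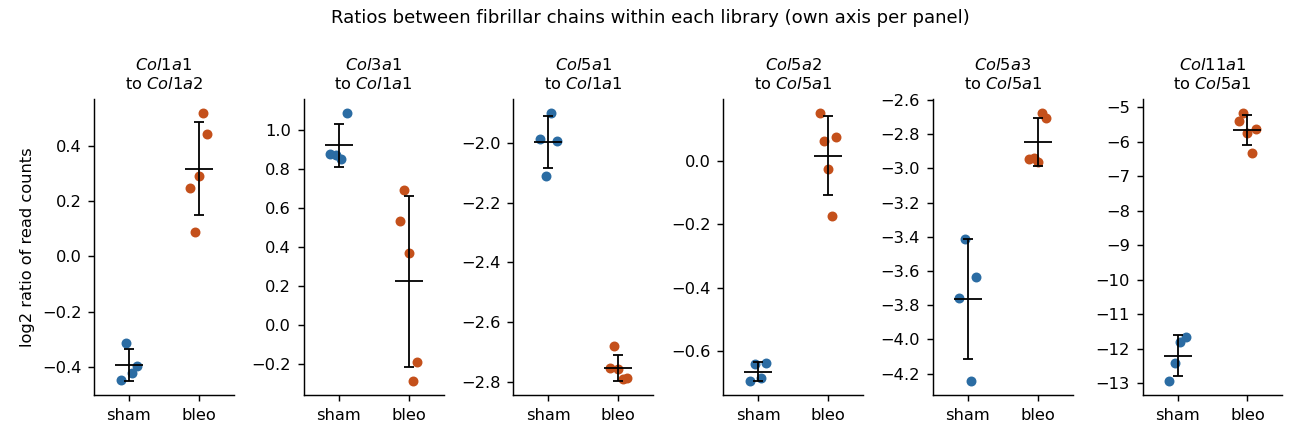
Log2 ratio of the read counts of 2 chains in each library (y axis, its own range in each panel) for 6 pairs, with the group mean and SD, aged sham (n = 4) in blue and aged bleo (n = 5) in orange. The groups do not overlap in any panel, and the ratios of Col3a1 and Col5a1 to Col1a1 are the ones that fall.

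Expressed as shares of the counts per mRNA length of the 10 genes, Col1a1 made up 19.7% to 21.5% in aged sham and 24.7% to 34.6% in aged bleo. Col1a2 made up 28.8% to 31.3% in aged sham and 24.9% to 27.1% in aged bleo, and the share of Col3a1 was 40.3% to 44.6% and 30.1% to 42.5%. These shares are corrected for the length of the principal mRNA and must sum to the whole, so the gain of a chain lowers the others.

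Injured mice differed among themselves in how much of each chain they had. Of the 10 members, 6 were highest in aged bleo 5 and 6 were lowest in aged bleo 2, while aged bleo 4 had the lowest Col3a1 and Col11a1 and the highest Col11a2. Aged bleo 4 and 5, with the most Col1a1, Col5a1, and Col5a3, also stood apart in several of the marker lists. Their fibroblast markers summed to 3941 and 4558 CPM, against 7866 to 9518 CPM in the other aged bleo libraries, their macrophage markers to 1509 and 865 CPM, against 446 to 670.4 CPM, and their cell cycle genes to 289.8 and 261 CPM, against 40.7 to 118 CPM. In the pan-leukocyte and neutrophil lists, aged bleo 4 alone stood apart, at 509 and 841 CPM. The other aged bleo libraries, aged bleo 5 included, were at 91.0 to 141 CPM and 83.3 to 127 CPM. The part of these differences in the spread of the chains was not tested, and the fibroblast and macrophage sums depend in large part on Dcn and Lyz2. In aged sham, 6 members were highest in aged sham 1 and 5 were lowest in aged sham 3. After the group means were taken out, the log2 CPM of Col5a1 followed that of Col1a1 most closely over the 9 libraries (Pearson's r = 0.978), and Col1a2 (0.932), Col5a2 (0.920), and Col5a3 (0.899) were near it. For Col24a1 this r was 0.545, and it was lower for Col3a1 (0.145), Col27a1 (0.140), Col11a1 (-0.07), and Col11a2 (-0.25). Over the 45 pairs of members it ranged from -0.76, between Col11a1 and Col27a1, to 0.978. Pooling the groups hides differences between them. In aged bleo alone, r with Col1a1 was 0.951 for Col24a1 and -0.07 for Col3a1. In aged sham, Col1a1, Col3a1, and Col24a1 were all above their group means in aged sham 1 and 4 and below them in aged sham 2 and 3. These correlations are a description of 9 libraries that share their scaling, in which a few mice set the values.

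**Figure D5:**
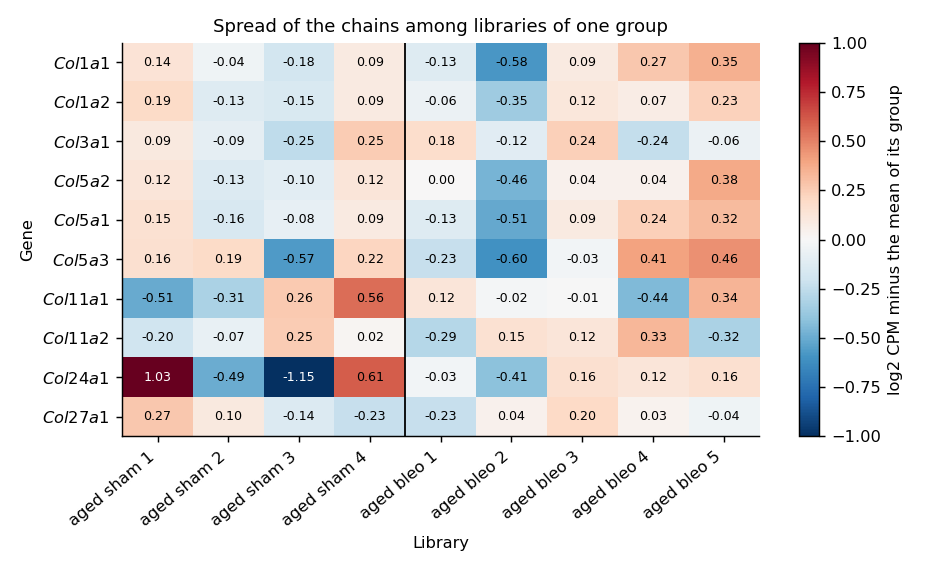
Log2 CPM of each member minus the mean of its group, for each of the 9 libraries, with red above and blue below the group mean. Col1a1, Col1a2, Col5a2, Col5a1, and Col5a3 have their lowest aged bleo value in aged bleo 2 and their highest in aged bleo 5, and Col3a1 and Col11a1 are lowest among aged bleo in aged bleo 4.

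Over all 9 libraries, group difference included, the genes outside the family with the pattern most like Col1a1 were Mest (r = 0.997), Elfn1 (0.997), D8Ertd82e (0.996), Ppic (0.996), and Runx1 (0.995), among 10014 genes with a mean of at least 10 CPM. Mest, Elfn1, and D8Ertd82e had aged sham means of 6.23, 0.42, and 2.06 CPM, so they reached this mean only through their aged bleo values. Mest, an imprinted gene of mesodermal tissues, went from a mean of 6.23 to 15.9 CPM, and Runx1, a transcription factor, from 11.5 to 146 CPM (log2 fold change 3.67, SE 0.24, FDR 2.29e-05). In the same ranking Col1a2 came 3rd, Col5a2 5th, Col5a1 6th, and Col5a3 28th. Col11a1 (241st), Col3a1 (371st), Col27a1 (453rd), and Col24a1 (463rd) came later. Since the shared difference between groups raises every such r, these values are a description.

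The sequence upstream of the start is shown for 4 members with different responses, the type I chain Col1a2, the type III chain Col3a1, and the type XI chains Col11a1, with the largest rise, and Col11a2, not called. Each is the 250 bases before the annotated start, from RefSeq (GRCm38.p6), which matched 8 of the 10 members, written 5′ to 3′ toward the gene. This start can differ from that of the counted gene. The Col1a2 window lies inside the counted gene, which begins at 4504814, and the Col11a2 window ends before the counted start at 34039437. Capitals mark matches, on either strand, of the CCAAT box, of GGGCGG for the GC box, of TATAAA for the TATA box, of TGANTCA for AP-1, of GGAAA for the NFAT core, of CAGAC for SMAD proteins, and of GGAATG for the TEAD core.
Col1a2 (chr6:4505368-4505617, plus strand): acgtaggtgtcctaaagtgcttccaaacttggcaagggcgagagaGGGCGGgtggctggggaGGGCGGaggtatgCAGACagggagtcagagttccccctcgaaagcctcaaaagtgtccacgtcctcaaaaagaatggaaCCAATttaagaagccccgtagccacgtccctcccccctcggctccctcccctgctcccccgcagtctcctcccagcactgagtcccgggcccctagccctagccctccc
Col3a1 (chr1:45311288-45311537, plus strand): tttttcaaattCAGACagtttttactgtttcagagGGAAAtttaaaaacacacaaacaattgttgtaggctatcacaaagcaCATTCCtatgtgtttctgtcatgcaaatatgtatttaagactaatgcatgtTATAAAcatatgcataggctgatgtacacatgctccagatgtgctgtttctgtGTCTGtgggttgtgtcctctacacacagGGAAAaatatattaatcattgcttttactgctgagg
Col11a1 (chr3:114030290-114030539, plus strand): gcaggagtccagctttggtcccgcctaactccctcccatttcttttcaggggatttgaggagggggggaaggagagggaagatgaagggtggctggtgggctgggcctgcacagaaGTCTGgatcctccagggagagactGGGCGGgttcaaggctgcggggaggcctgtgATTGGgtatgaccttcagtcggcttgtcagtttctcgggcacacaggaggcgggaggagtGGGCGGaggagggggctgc
Col11a2 (chr17:34038888-34039137, plus strand): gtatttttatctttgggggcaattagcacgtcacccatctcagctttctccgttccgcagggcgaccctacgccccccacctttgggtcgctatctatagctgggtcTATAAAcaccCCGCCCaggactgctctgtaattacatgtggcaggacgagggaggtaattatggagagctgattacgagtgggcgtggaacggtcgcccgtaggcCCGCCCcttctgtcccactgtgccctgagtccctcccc

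The GC box was found in 6 of the 8 members with a sequence, against 32.7% of 32851 promoters of this length, and the CCAAT box in 3 (Col1a2, Col5a3, Col11a1), against 33.8%. Col3a1 and Col11a2 held TATAAA, 117 and 143 bases before the start, a motif in 12.4% of all promoters. The SMAD letters CAGAC were in 5 of 8 (42.2% of all), the NFAT core in 4 of 8 (55.6%), and the TEAD core, which shares the letters GGAA with it, in Col3a1 alone (12.6%). The AP-1 letters were in none of the 8 (6.75% of all), which says only that they are not in these windows. Col11a1 and Col11a2 both had 2 GC box matches, and they differed in that Col11a1 had a CCAAT and a CAGAC match and Col11a2 a TATAAA match. These are matches of letters, and whether any of them acts in these promoters was not tested.

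The enzymes and partners that make, organize, and degrade fibrillar collagen were counted as 5 lists with 58 genes. Of the 56 genes tested, 21 were called higher in aged bleo and 9 lower, which is 37.5% and 16.1% against 12.3% and 11.5% of all genes. Genes of 4 lists were called in both directions. The list for breakdown held no lower gene, but with only 5 genes and a share of 11.5% over all genes this does not set it apart.

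Among 18 genes for procollagen modification and folding, 7 were higher, 1 was lower, and 10 were not called, with a median log2 fold change of 0.45. P4ha3, a prolyl 4-hydroxylase subunit, rose, being at 2.48 to 4.89 CPM in aged sham and 62.0 to 127 CPM in aged bleo (log2 fold change 4.95, SE 0.29, FDR 1.48e-05). Its relatives P4ha1 (log2 fold change 0.13, FDR 0.265) and P4ha2 (log2 fold change 0.18, FDR 0.221) were not called. Plod2, the lysyl hydroxylase of the telopeptides, rose from a mean of 65.2 to 166 CPM (log2 fold change 1.35, SE 0.19, FDR 1.02e-03), and Colgalt2, a collagen galactosyltransferase, fell from 13.8 to 3.32 CPM (log2 fold change -2.05, SE 0.42, FDR 6.41e-03). Serpinh1, the collagen chaperone HSP47, was among the higher genes (log2 fold change 0.90, SE 0.13, FDR 1.29e-03).

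For propeptide cleavage and crosslinking, 3 of the 12 tested genes were higher, 2 were lower, and 7 were not called, with a median log2 fold change of 0.07, while Tll2 was too low to be tested. Lox, lysyl oxidase, rose (log2 fold change 2.24, SE 0.24, FDR 2.50e-04), as did Adamts14, a procollagen N-proteinase, from a mean of 15.1 to 41.1 CPM (log2 fold change 1.44, SE 0.34, FDR 0.0119). Pcolce2, an enhancer of C-propeptide removal, fell from a mean of 799 to 235 CPM (log2 fold change -1.77, SE 0.47, FDR 0.0190), and Loxl4, another lysyl oxidase, fell from 58.8 to 24.5 CPM (log2 fold change -1.26, SE 0.34, FDR 0.0204).

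The list of fibril surface and assembly regulators was split, with 5 genes higher, 4 lower, and 4 not called of 13 tested (Kera was too low). Fmod, the small proteoglycan fibromodulin, rose from a mean of 39.4 to 542 CPM (log2 fold change 3.78, SE 0.21, FDR 1.23e-05), and Col12a1, a collagen that decorates fibrils, from 58.6 to 796 CPM (log2 fold change 3.76, SE 0.34, FDR 1.14e-04). Of the genes that fell, Tnxb, tenascin X, went from a mean of 4023 to 1281 CPM (log2 fold change -1.65, SE 0.51, FDR 0.0340), and Ogn, osteoglycin, from 1531 to 507 CPM (log2 fold change -1.59, SE 0.33, FDR 7.15e-03). The proteoglycan Dcn, which is also a fibroblast marker, and Col14a1 were the other genes that fell.

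Of 8 collagen receptors and uptake genes, 3 were higher, 2 lower, and 3 not called. Itga1, the integrin α1 subunit (log2 fold change 1.49, SE 0.22, FDR 1.33e-03), and the endocytic receptor Mrc2 (log2 fold change 1.05, SE 0.09, FDR 7.34e-05) rose. Itga11, whose integrin binds fibrillar collagen (log2 fold change -1.05, SE 0.29, FDR 0.0204), and the receptor kinase Ddr2 (log2 fold change -0.84, SE 0.20, FDR 0.0113) fell. Of 5 genes for fibrillar collagen breakdown, 3 were higher and none lower. Mmp13, a collagenase, rose, being at 0.0856 to 0.161 CPM in aged sham and 8.39 to 15.0 CPM in aged bleo (log2 fold change 6.59, SE 0.28, FDR 5.10e-06). With at most 9 counts in any aged sham library, it passed the filter through its aged bleo counts alone, and with log2(FPKM + 1) values its log2 fold change was 1.51. The membrane collagenase Mmp14 rose by 1.31 on the log2 scale. The neutrophil collagenase Mmp8 was not called (log2 fold change 0.86, SE 0.68, FDR 0.348).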

How the data were processed

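Libraries were grouped by their sample labels into 4 of sham-treated and 5 of bleomycin-treated aged mice. The authors deposited 1 table with the read count of 43346 genes per library, not normalized, and FPKM values, which they scaled to exon length and to a library total of 2.27 to 2.42 times the summed counts. The submitters' processing notes name bcl2fastq, STAR 2.5.2b, Subread, and featureCounts with mm10 (GRCm38). The annotation and strand setting are not given in the sources used here, so overlapping genes may share reads.

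Tests were run on genes whose mean count reached 25, with edgeR 4.0.16 (glmQLFit and glmQLFTest, TMM, no covariate) in R 4.3.3 over all 16877 genes, and FDR denotes the Benjamini-Hochberg adjusted p-value. CPM was scaled by TMM, with a prior count of 2 on the log2 scale. Log2 ratios of 2 chains were compared by exact two-sided permutation of the group labels. Pairs of libraries of a group had a chi-square of 30.9 to 468 per degree of freedom between their counts, so none was a duplicate. Exons and mRNA lengths came from GENCODE M21 (the coding transcript with the longest coding sequence). The fit was tested on simulated data.

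The members and lists were chosen with earlier results of these data known. Named genes are the members, up to 2 called genes with the largest rise and fall per pathway list, the 5 genes most like Col1a1, marker genes as part of their lists, and Col2a1, with P4ha1, P4ha2, Serpinh1, Dcn, Col14a1, and Mmp8 added after their values were seen. The alternatives were DESeq2 1.42.0, limma 3.58.1 on log2 CPM, log2(FPKM + 0.1), and log2(FPKM + 1), RLE or library size scaling, scaling without the members, all genes kept, a minimum of 10 counts in each library, each library left out, and the replicate number as a block.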

Additional observations from a re-analysis of the deposited data

Results flagged for a closer look

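Of 76 sets of values by group that were searched for a sample far from the others, 2 were found, where chance gives about 1 in 20. Col5a3 in aged sham 3 was at 51.6 CPM, with the nearest library at 85.1 CPM and the farthest at 88.8 CPM. When aged sham 3 was left out, Col5a3 still had a log2 fold change of 2.33 (FDR 1.17e-03, edgeR). The log2 ratio of the counts of Col3a1 to Col1a1 in aged sham 4 was 1.09, with the nearest library at 0.88 and the farthest at 0.85.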

How the results depend on the processing

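All 606 recomputed log2 fold changes of 32 members and named genes kept their direction and their call (higher, lower, or not called). The genes added after their values were seen were not among these 32. All 66 recomputed ratios kept their direction and a permutation p below 0.05. The number of genes called ranged from 3525 to 4597 with each library left out. It was 1785 by limma on log2(FPKM + 1), which compresses low levels, 4978 with no filter, and 4132 by DESeq2, beside 4022. With at least 10 counts in every library, 8 members were called, since Col11a1 was no longer tested, and in every other alternative 9. The number of called pathway genes ranged from 29 to 32. For Col11a2, the FDR ranged from 0.0866 to 0.269 and the fold change stayed under 1.5. With the replicate number as a block, 3536 genes and 9 members were called. Same-numbered samples correlated at 0.0922, 0.0623, -0.13, and 0.326 in their deviations from the group means, and only number 4 correlated best with its own number, so the numbers are not taken as pairs. With 4 and 5 mice, the ratios cannot reach a p below 0.0159, and Col11a1 in aged sham rests on 9 to 17 counts. On the log2(FPKM + 1) scale the log2 fold changes of the low genes shrank, to 1.51 for Mmp13, -0.83 for Colgalt2, and 2.14 for Runx1.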
